A study of Mus musculus with 12 samples.

Results

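Ribosome-protected fragments (RPF, the short pieces of mRNA shielded by a ribosome, here called footprints) were compared between B16F10 mouse melanoma cells depleted of Osgep and their controls. The comparison holds the 6 RPF libraries of a series of 12, namely 3 libraries of cells expressing a control hairpin (shCtr) and 3 of cells expressing hairpin number 2 against Osgep (shOSGEP). The genes were the protein-coding genes with at least 10 counts in each of the 6 libraries, which left 10378 of 21974 protein-coding genes and of 55487 genes in the table. All cells carried a hairpin and elongation was stopped with cycloheximide before active ribosomes were pulled down with a puromycin analogue. The shOSGEP group is a single hairpin in a single cell line, so effects of Osgep loss and of this hairpin cannot be told apart. Footprints are given as CPM, protein-coding counts scaled to the same total in each library, so that ribosomal RNA fragments do not set the scale. A change is the log2 ratio of the shOSGEP to the shCtr library with the same replicate number, which gives 3 pairs. A footprint count moves both with the amount of an mRNA and with the ribosomes on each copy, and these cannot be told apart from RPF libraries alone. It is likewise a bulk measure, in which fewer cells of a kind and less RNA per cell cannot be told apart.

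Osgep encodes the catalytic subunit of KEOPS, the complex that places N6-threonylcarbamoyladenosine (t6A) next to the anticodon in the tRNAs for ANN codons, whose first base is A. The modification steadies codon pairing, and cells short of it can decode slowly and make faulty protein. Stalled translation, misfolded protein and amino acid shortage are sensed by kinases that phosphorylate eIF2. Phosphorylated eIF2 lowers bulk initiation while favouring a few mRNAs such as Atf4, whose product turns on genes for amino acid supply. This programme is called the integrated stress response.

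The hairpin acts on the coding sequence of Osgep (ENSMUSG00000006289, GRCm38, chromosome 14, 50906478 to 50924893, minus strand). The stretch of 41 bases that the study lists for hairpin number 2 lies at positions 486 to 526 of the 1005 coding bases and is shown because it defines the shOSGEP group.
Osgep hairpin 2: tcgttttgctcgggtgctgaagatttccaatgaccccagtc

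The results turn on 3 families of genes with known promoter motifs, so 7 of their promoters are shown here, each as the 180 bases up to the start site in RefSeq (GRCm38.p6), read 5′ to 3′ along the gene. They were taken by smallest p among members with a match in this stretch, and members without one were passed over. Capitals mark matches on either strand. The first 3 belong to the integrated stress response and hold the ATF4 and CHOP composite element (CARE, searched as TGATGNAA). Nupr1 encodes a stress-induced chromatin protein (chr7:126625471-126625650, minus strand), Pycr1 the last enzyme of proline synthesis (chr11:120643749-120643928, minus strand) and Asns asparagine synthetase (chr6:7693210-7693389, minus strand).
Nupr1: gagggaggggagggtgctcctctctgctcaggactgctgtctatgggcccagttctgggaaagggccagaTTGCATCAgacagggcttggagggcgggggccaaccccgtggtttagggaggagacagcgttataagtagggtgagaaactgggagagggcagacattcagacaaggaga
Pycr1: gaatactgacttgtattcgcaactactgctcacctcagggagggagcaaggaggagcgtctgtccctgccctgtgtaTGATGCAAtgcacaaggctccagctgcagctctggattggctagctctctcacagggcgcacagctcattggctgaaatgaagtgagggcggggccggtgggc
Asns: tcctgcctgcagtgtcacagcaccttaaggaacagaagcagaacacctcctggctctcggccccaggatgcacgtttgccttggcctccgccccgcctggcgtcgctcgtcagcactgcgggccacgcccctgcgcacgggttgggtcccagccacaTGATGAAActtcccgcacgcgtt
A pair of interferon-stimulated promoters hold the interferon-stimulated response element (ISRE, searched as GAAA, any 2 bases, GAAA). Ifit3 (chr19:34583349-34583528, plus strand) and Ifit1 (chr19:34640709-34640888, plus strand) encode antiviral proteins that bind foreign RNA.
Ifit3: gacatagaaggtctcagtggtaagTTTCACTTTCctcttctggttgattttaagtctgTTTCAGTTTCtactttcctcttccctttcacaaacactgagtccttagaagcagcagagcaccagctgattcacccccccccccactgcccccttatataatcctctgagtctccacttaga
Ifit1: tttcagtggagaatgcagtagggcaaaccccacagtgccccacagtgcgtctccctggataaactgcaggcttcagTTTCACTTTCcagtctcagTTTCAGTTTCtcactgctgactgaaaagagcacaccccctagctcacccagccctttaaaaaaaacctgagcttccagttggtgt
The last pair hold a match to the letters of the cell cycle homology region (CHR, searched as TTTGAA). The match begins 167 bases before the start in Ccnb2 and 124 bases before it in Fen1. Whether either match works as that element was not tested. Ccnb2 (chr9:70421555-70421734, minus strand) encodes a mitotic cyclin and Fen1 (chr19:10204394-10204573, minus strand) the flap endonuclease of DNA replication.
Ccnb2: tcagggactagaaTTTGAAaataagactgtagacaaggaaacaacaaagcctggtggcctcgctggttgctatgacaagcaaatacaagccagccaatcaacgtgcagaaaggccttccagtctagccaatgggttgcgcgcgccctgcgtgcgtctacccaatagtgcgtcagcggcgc
Fen1: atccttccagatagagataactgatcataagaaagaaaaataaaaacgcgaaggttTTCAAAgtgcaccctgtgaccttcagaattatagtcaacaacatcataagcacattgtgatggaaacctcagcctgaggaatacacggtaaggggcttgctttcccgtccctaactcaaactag

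The RPF libraries were uneven. They held 12.9 to 40.3 M counts (M, mega), of which 4.42 to 17.0 M fell on protein-coding genes and 26.5% to 67.6% on ribosomal RNA. The shOSGEP library of replicate 1 stood apart, with the most ribosomal RNA and the fewest protein-coding counts. Its shCtr partner was second in ribosomal RNA, at 44.3%. Footprints on the tested melanocyte factor genes Sox10 and Mitf were present in all 6 libraries (226 to 458 CPM and 151 to 439 CPM), while no marker of T cells, macrophages or endothelium reached the count minimum. The marker lists of those 3 cell types had summed counts of at most 60 per library. Of the keratinocyte markers none was tested either, but Cdsn, a protein of cornified skin, had 35, 2 and 17 counts in shCtr and 378, 172 and 203 in shOSGEP replicates 1, 2 and 3. The other keratinocyte markers had at most 5 counts in any library. The fibroblast markers summed to 136 to 841 counts, and 3 of 7 were tested. The minimum of 10 counts in every library left out 11596 protein-coding genes such as Cdsn. Just outside it, 80 genes had a smallest count of 9, and just inside it 85 had one of 10.

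Osgep footprints were lower in shOSGEP in all 3 pairs. They measured 21.5, 20.1 and 13.2 CPM in shCtr replicates 1, 2 and 3 and 13.8, 10.7 and 6.77 CPM in the shOSGEP libraries. The change was -0.64, -0.91 and -0.96, and the fitted log2 change was -0.84 ± 0.24 (SE, 3 pairs, edgeR quasi-likelihood test with the replicate as a block, unadjusted p = 0.0096, adjusted p = 0.743). The groups overlapped, because the shOSGEP library of replicate 1 was above the shCtr library of replicate 3.
The other genes of t6A synthesis varied. Yrdc, which makes the threonylcarbamoyl-AMP that KEOPS uses, had changes of -0.30, -0.46 and -0.23, and its groups did not overlap. The KEOPS subunits Tprkb (0.41, -0.16, -0.08), Lage3 (0.05, 0.29, -0.42) and Gon7 (-1.40, 0.38, 0.23) changed sign between pairs, as did the mitochondrial enzyme Osgepl1 (-0.52, 0.07, 0.48) and Cdkal1 (0.51, -0.05, 0.66), which adds a methylthio group to t6A. Trp53rkb, the kinase subunit, was higher in each pair (0.16, 0.31, 1.29).

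Over all genes, the adjusted test called nothing. The share of the 10378 genes with an adjusted p under 0.05 was 0% (edgeR, Benjamini-Hochberg), and the smallest adjusted p was 0.488. At an unadjusted p under 0.05, 376 genes were higher (3.62%) and 207 lower (1.99%) which is 5.62% in either direction. Over the same genes DESeq2 called 18 and limma voom 2 at an adjusted p under 0.05, and edgeR without the libraries of replicate 1 called 186, of which 107 were higher and 79 lower. That last fit has 1 residual degree of freedom and gave all genes one common spread, so it also calls genes whose remaining pairs differ widely, such as Eci1 (-0.17 and -5.53). With protein-coding totals in place of TMM scaling, 451 were higher and 149 lower at an unadjusted p under 0.05, and 0 passed the adjusted test. Genes named below are therefore described by their values in each pair, and none of the differences passed the adjusted test in this fit.
The pairs differed in breadth more than in centre. The median change was 0.02, 0.00 and -0.01, but the SD over genes was 0.88 in pair 1 against 0.39 in pair 2 and 0.40 in pair 3. In pair 1, 10% of genes were higher by more than 1 on the log2 scale and 10.5% were lower. These shares were 1.13% and 1.09% in pair 2, and 1.68% and 0.53% in pair 3. Across the 10378 genes, which share libraries and are not independent, Pearson's r of the changes was 0.05 between pairs 1 and 2, 0.23 between pairs 1 and 3 and 0.16 between pairs 2 and 3.
In all 3 pairs, 1707 genes were higher (16.4%) and 1590 lower (15.3%). A change of at least 0.5 in each pair was found for 101 higher genes (0.973%) and 32 lower ones (0.308%). The 3 libraries of each group did not overlap for 264 higher genes (2.54%) and 259 lower ones (2.5%). Gene lists were read against these shares, and for each list the pair medians are shown together with those of all genes.

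**Figure D1:**
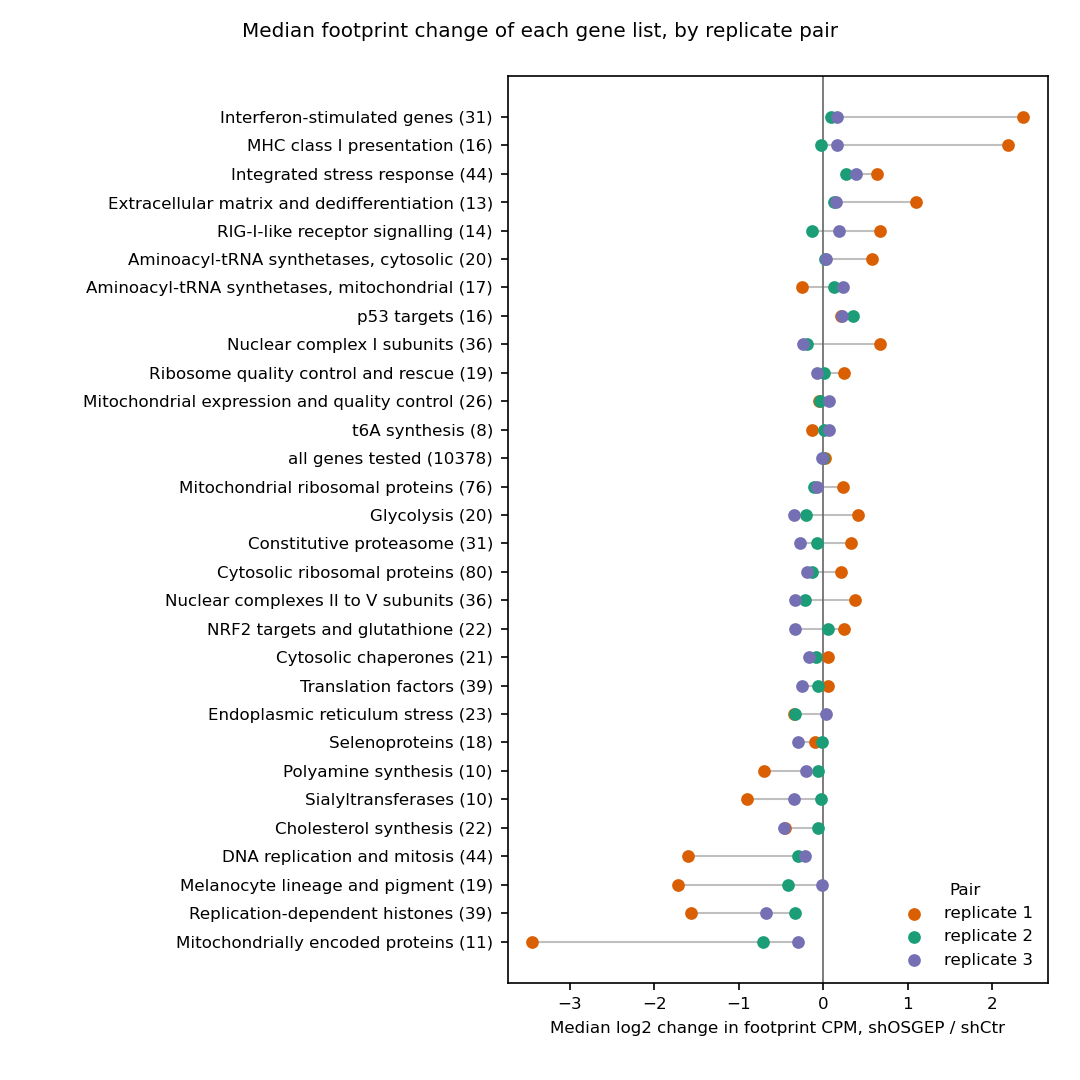
Median log2 change in footprint CPM (horizontal axis) of each gene list, one point per replicate pair, with the number of genes tested in parentheses. The points of pair 1 lie farthest from 0 for interferon, MHC class I and mitochondrially encoded genes, and those of the integrated stress response, histones and p53 targets, among other lists, lie on one side of 0 in all 3 pairs.

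The integrated stress response was the list with the most members higher in every pair. Of its 44 tested members (of 49), 28 were higher in all 3 pairs and 2 lower, 18 were higher at an unadjusted p under 0.05 and none lower. Its median change was 0.64, 0.28 and 0.39 in pairs 1, 2 and 3, against 0.02, 0.00 and -0.01 for all genes. Without the libraries of replicate 1 the fitted median was 0.34, and 29 members were higher and 5 lower in both remaining pairs, where 27.2% and 29% of all genes were.
The transcription factors and feedback genes led the list. Of 17 tested, 15 were higher in all pairs, none was lower, and 8 were higher by at least 0.5 in each.
Nupr1 measured 15.8, 2.51 and 8.79 CPM in shCtr replicates 1, 2 and 3 and 86.2, 8.59 and 34.6 CPM in shOSGEP. Its fitted change was 2.10 ± 0.24 (SE, edgeR, 3 pairs, adjusted p = 0.488). Every shOSGEP library was over its own partner, by 2.45, 1.77 and 1.98 on the log2 scale, although the groups overlapped because replicates differed in level.
Trib3, a pseudokinase that ATF4 and CHOP induce and that restrains them, measured 24.0, 8.71 and 10.6 CPM in shCtr and 120 (119.6), 23.9 and 56.4 CPM in shOSGEP. Its changes were 2.32, 1.45 and 2.41, the largest of all members in pair 3. Nupr1 and Trib3 were the 2 genes that limma voom called, and DESeq2 called both.
Ppp1r15a, the phosphatase subunit that removes phosphate from eIF2, had 22.6, 14.1 and 29.7 CPM in shCtr and 47.8, 24.8 and 64.0 CPM in shOSGEP. Its changes of 1.08, 0.82 and 1.11 had an SD of 0.16 over the 3 pairs.
Atf5, whose mRNA is translated preferentially when eIF2 is phosphorylated, had 77.0, 34.5 and 94.6 CPM in shCtr and 114.7, 68.0 and 265.7 CPM in shOSGEP. Ddit3, which encodes CHOP, had 26.2, 15.9 and 29.8 CPM in shCtr and 35.9, 28.1 and 86.1 CPM in shOSGEP. For both genes the change was smallest in pair 1 and largest in pair 3.
Atf4 itself was higher by 0.68, 0.38 and 0.38 (155, 168 and 268 CPM in shCtr, 248.7, 218 and 349.6 CPM in shOSGEP, unadjusted p = 0.0513). Jdp2, a bZIP repressor, was higher by 1.21, 0.63 and 0.81, and Sesn2, a brake on mTORC1, by 0.71, 0.56 and 0.81 with groups that did not overlap. Chac1 (1.64, 0.39, 1.28), which breaks down glutathione, Ddit4 (1.96, 0.65, 0.69), another brake on mTORC1, and the secreted stress factor Gdf15 (1.72, 0.87, 0.51) were also higher in each pair.

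**Figure D2:**
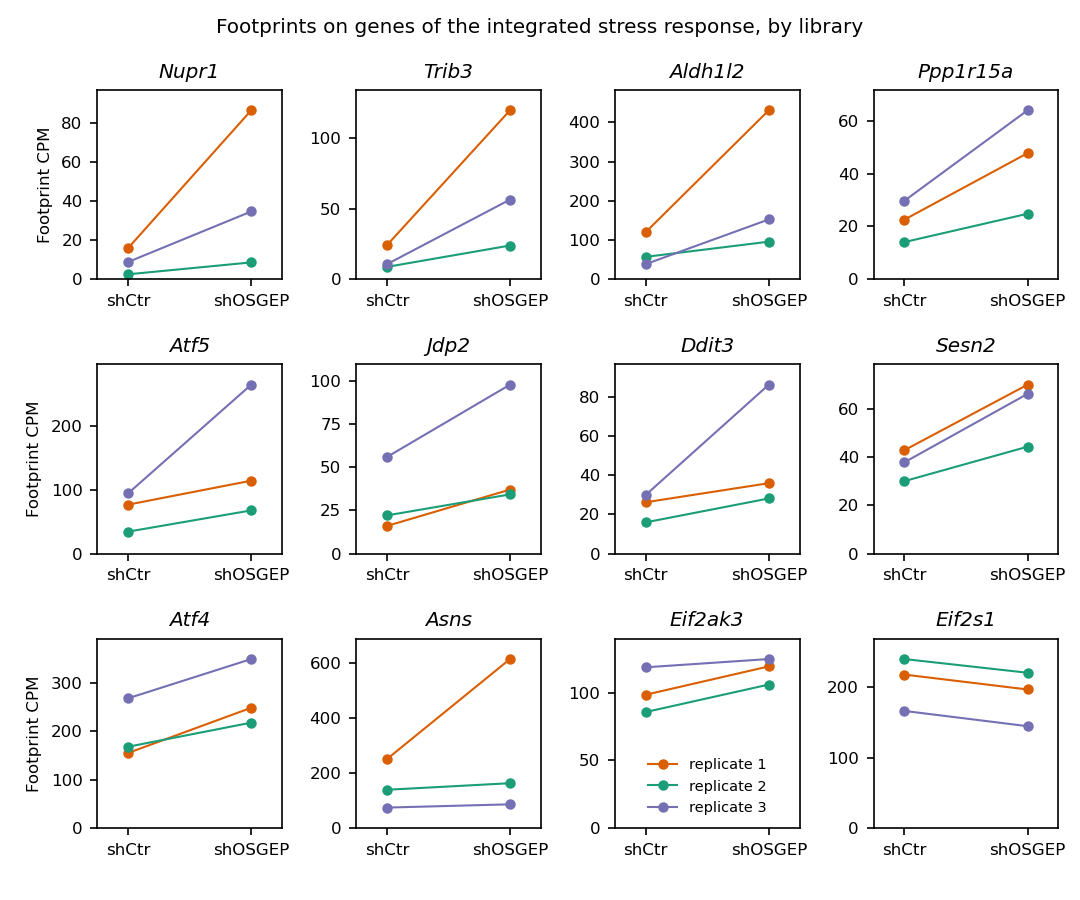
Footprint CPM (vertical axes, linear and starting at 0) of 12 genes of the integrated stress response in each library, with lines joining shCtr and shOSGEP of one replicate. Nupr1, Trib3 and 8 more genes were higher in shOSGEP in each pair, as was the kinase gene Eif2ak3, while Eif2s1 was lower in each.

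Genes of amino acid and one-carbon synthesis followed with smaller values. Of 13 tested, 9 were higher in all pairs and none lower, and the medians were 0.90, 0.24 and 0.38. Aldh1l2, a mitochondrial folate enzyme, measured 120 (119.6), 57.0 and 38.3 CPM in shCtr and 431, 95.7 and 152 CPM in shOSGEP. Pycr1 was higher by 2.68, 0.33 and 1.14, and Psph, the last step of serine synthesis, by 1.80, 0.32 and 0.58. Asns was higher by 1.296 in pair 1 and by 0.23 and 0.21 in pairs 2 and 3. Cth, which makes cysteine, did not keep its direction (2.32, -0.22, 1.72).
Pck2, the mitochondrial PEP carboxykinase, stood outside the list but among the 8 higher genes with the smallest p. It measured 56.6, 43.6 and 29.7 CPM in shCtr and 178, 65.8 and 81.8 CPM in shOSGEP, and its groups did not overlap.
Amino acid transporters were mixed, with 3 of 9 higher in all pairs and 1 lower. The neutral carriers Slc1a4 (1.54, 0.78, 0.70) and Slc1a5 (0.37, 0.28, 1.38) and the glycine carrier Slc6a9 (1.24, 0.35, 0.48) were the higher ones.
The upstream side of the pathway was flat. Of its 5 tested genes, Eif2ak3 (the endoplasmic reticulum kinase PERK) was higher in each pair (0.28, 0.31, 0.07) and Eif2s1, which encodes the eIF2 alpha subunit itself, lower in each (-0.15, -0.12, -0.20). Eif2ak1, the haem-regulated kinase HRI, had changes of 0.09, -0.08 and -0.40, and Eif2ak2, the double-stranded RNA kinase PKR, of 1.31, -0.23 and 0.08. Footprints on a kinase gene say nothing of its activity.

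Cytosolic aminoacyl-tRNA synthetases, several of which are ATF4 targets, were higher mainly in pair 1, with medians of 0.58, 0.02 and 0.03. Of 20 tested, 7 were higher in all pairs and 4 lower. Cars, for cysteine, was higher in each pair without overlap of the groups (95.8, 87.8 and 69.5 CPM in shCtr, 160 (159.9), 109.7 and 96.5 CPM in shOSGEP). Lars (1.16, 0.29, 0.19) and Nars (1.003, 0.25, 0.29) were higher in each, while Tars was not (0.87, -0.01, 0.43). Among the mitochondrial synthetases 5 of 17 were higher in all pairs and 3 lower. Tars2 changed by 0.74, 0.30 and 0.52. In the list of ribosome quality control and rescue factors 5 of 19 were higher and 3 lower, and the members with the smallest p were Gtpbp2 (0.94, 0.39, 0.64), a rescue GTPase for stalled ribosomes, and Ankzf1 (0.77, 0.21, 0.89), which releases stalled chains.
The CARE motif occurred in 10 of the 37 tested members of the stress response that have a RefSeq promoter of 300 bases (27.0%, 250 bases before to 50 after the start). It occurred in 5 of 12 synthetase promoters (41.7%), and in 9 of 87 promoters of the 101 genes higher by at least 0.5 in each pair (10.3%). Over all 8296 tested genes with a promoter the share was 2.56%, and over all 32851 windows 3.97%. CARE was not alone in those 87 promoters, since the ISRE occurred in 8 of them (9.2%), against 3.33% of tested genes with a promoter. In the Nupr1 and Pycr1 stretches printed above the match begins 110 and 103 bases before the start, and in Asns 23 bases before it. A match is a description of letters, and binding of a factor was not measured.

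The list of p53 targets had a positive median in every pair (0.21, 0.35, 0.23). Of 16 tested, 7 were higher in all pairs and none lower, and 4 were higher at an unadjusted p under 0.05. Gadd45a, a growth arrest gene that ATF4 can also induce, was higher by 2.51, 0.73 and 1.30, and DESeq2 called it. Plk2 (1.23, 0.70, 1.20), a stress-induced kinase, Bbc3 (0.75, 0.78, 0.61), which encodes the death factor PUMA, and Btg2 (0.70, 0.88, 0.36), an antiproliferative gene, were higher in each pair. Bbc3 varied least between pairs (SD 0.093).

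Replication-dependent histones, whose mRNAs accumulate in S phase, were lower. Of 39 tested genes (of 68), none was higher in all pairs and 26 were lower, and 23 were lower at an unadjusted p under 0.05. The median change was -1.57, -0.34 and -0.68. Without the libraries of replicate 1 the fitted median was -0.51, and 27 members were lower and 1 higher in both remaining pairs.
Hist1h3a, an H3 gene, measured 118.8, 81.8 and 63.2 CPM in shCtr and 28.9, 38.4 and 25.7 CPM in shOSGEP. Its fitted change was -1.46 ± 0.24 (SE, edgeR, unadjusted p = 0.000602), and the groups did not overlap. It was one of 6 lower genes called by DESeq2.
Hist2h2aa1, an H2A gene, had 80.1, 148 and 58.2 CPM in shCtr and 31.9, 79.1 and 30.6 CPM in shOSGEP. The H2B genes Hist1h2bh (-0.86, -0.79, -1.28) and Hist1h2bj (-1.44, -0.60, -1.23) and the H3 gene Hist1h3g (-2.65, -0.84, -1.01) were lower in each pair as well. Histone genes are near-identical copies, and how reads with several matches were counted is not stated, so single members are uncertain.
Genes of DNA replication and mitosis were lower too. None of 44 was higher in all pairs and 35 were lower, 20 of 25 replication genes and 15 of 19 mitosis genes. The medians were -1.60, -0.30 and -0.21, and 11 members were lower at an unadjusted p under 0.05. Without replicate 1 the fitted median was -0.23.
Among replication genes, Mcm4 of the replicative helicase had 203, 223 and 144.7 CPM in shCtr and 72.7, 172 and 96.2 CPM in shOSGEP. The sliding clamp Pcna had 422, 491 and 231 CPM in shCtr and 206, 350.2 and 165 CPM in shOSGEP. Fen1 was lower by 1.20, 0.22 and 0.45 without overlap of the groups.
Among mitosis genes, the cyclins Ccna2 (-2.29, -0.49, -0.59), Ccnb1 (-1.99, -0.54, -0.42) and Ccnb2 (-2.38, -0.67, -0.34) were lower in each pair. Plk1 (-2.62, -0.44, -0.45), a mitotic kinase, and Cdc20 (-3.12, -0.58, -0.24), an activator of the anaphase-promoting complex, were also lower. The proliferation marker Mki67 was not (-2.94, -0.09, 0.30), and without replicate 1 its fitted change was 0.11. In pairs 2 and 3 the mitosis medians were -0.34 and -0.16 against -2.22 in pair 1.
The CHR motif occurred in 11 of 15 mitosis promoters (73.3%) and in 3 of 20 replication promoters (15%), of which Fen1 is one, against 13.8% of all tested genes with a promoter and 17.9% of all windows. The E2F motif (searched as TTTCGCGC) occurred in 5 of 20 replication promoters (25%) and 1 of 15 mitosis promoters (6.67%), against 0.808% of tested genes. CCAAT occurred in 13 of 20 (65%) and 14 of 15 (93.3%), against 43.7%.

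**Figure D3:**
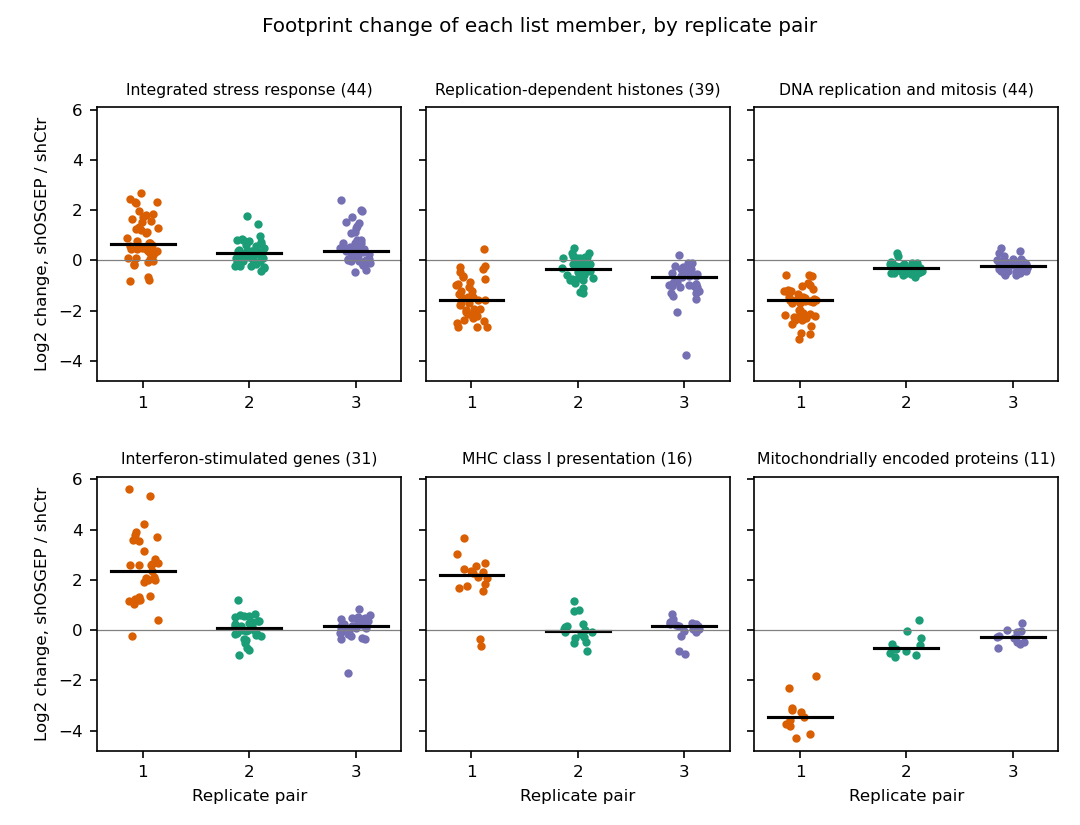
Log2 change of every tested member (points, spread sideways at random) of 6 gene lists in each replicate pair, with the median as a black line and the number of genes in parentheses. Stress response points lie mostly above 0 and histone points mostly below 0 in each pair, whereas interferon and MHC class I points lie far above 0 in pair 1 and around 0 in pairs 2 and 3.

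Interferon-stimulated genes were higher by far the most in pair 1. The list, which responds to interferon through STAT and IRF factors, had medians of 2.37, 0.10 and 0.16, and 31 of its 51 genes were tested. In all 3 pairs 12 members were higher and none lower, and 4 were higher at an unadjusted p under 0.05. Without replicate 1 the fitted median was 0.10, with 12 members higher and 4 lower in both remaining pairs.
Isg15, an antiviral ubiquitin-like modifier chosen after its values were seen, measured 4.08, 2.01 and 1.46 CPM in shCtr and 166, 1.39 and 2.01 CPM in shOSGEP. The high value was in the shOSGEP library of replicate 1 alone.
Among the 12 members higher in each pair, Ifit3 measured 6.11, 1.84 and 4.53 CPM in shCtr and 80.4, 4.25 and 6.54 CPM in shOSGEP, and it was the single interferon-stimulated gene with at least 0.5 in every pair. Adar, the enzyme that edits double-stranded RNA, had 48.7, 45.9 and 67.7 CPM in shCtr and 108.2, 69.1 and 83.2 CPM in shOSGEP without overlap. Trim21, an antibody receptor of the cytosol, was higher by 2.37, 0.54 and 0.34, and Samd9l by 2.57, 0.18 and 0.60. Ifit1 was higher by 4.21 in pair 1 and by 0.52 and 0.05 in pairs 2 and 3.
The RIG-I-like receptors, which sense viral RNA in the cytosol, followed the same split. Ddx58, which encodes RIG-I, had 15.8, 7.54 and 5.99 CPM in shCtr and 221, 3.82 and 7.14 CPM in shOSGEP. Ifih1, for MDA5, was higher by 2.65, 0.16 and 0.27, and Dhx58, for LGP2, changed by 5.602, -0.12 and 0.82. Downstream, the adaptor Mavs had changes of -0.01, -0.31 and -0.19. Irf3, the factor that turns on interferon genes, was higher in each pair (0.81, 0.11, 0.55), Nfkb1 also (1.02, 0.25, 0.16), and Rela was lower in each (-0.60, -0.13, -0.31). Over the 14 tested genes of this pathway the medians were 0.67, -0.13 and 0.19. In all pairs 3 were higher (21.4%) and 2 lower (14.3%), near the 16.4% and 15.3% of all genes. At an unadjusted p under 0.05, 0 were higher and 0 lower.
MHC class I genes, which load peptides for T cells, had medians of 2.19, -0.02 and 0.17. Of 16 tested, 6 were higher in all pairs and none lower, and without replicate 1 the fitted median was 0.02. Nlrc5, the transactivator of the class I genes, measured 3.92, 1.68 and 6.27 CPM in shCtr and 24.7, 3.73 and 9.89 CPM in shOSGEP. The peptide transporter gene Tap2 (3.02, 0.81, 0.18) and Tap1 (1.83, 0.14, 0.21) and the class I gene H2-Q4 (2.26, 0.15, 0.32) were higher in each. The classical heavy chain H2-K1 was higher in pairs 1 and 3 (3.65, -0.49, 0.25). B2m, the light chain, was higher in pair 1 (2.07) and lower in pairs 2 and 3 (-0.83 and -0.96). Class I genes share sequence, so counts of single H2 genes are uncertain.
The library that carried these values, shOSGEP replicate 1, was also the one with 67.6% ribosomal RNA and the lowest share of mitochondrially encoded footprints. The part of its composition in the interferon and class I values was not tested.
The ISRE motif occurred in 13 of 26 promoters of interferon-stimulated genes (50%) against 3.33% of tested genes with a promoter and 3.44% of all windows. The Ifit3 and Ifit1 stretches printed above each hold it at 2 places.

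**Figure D4:**
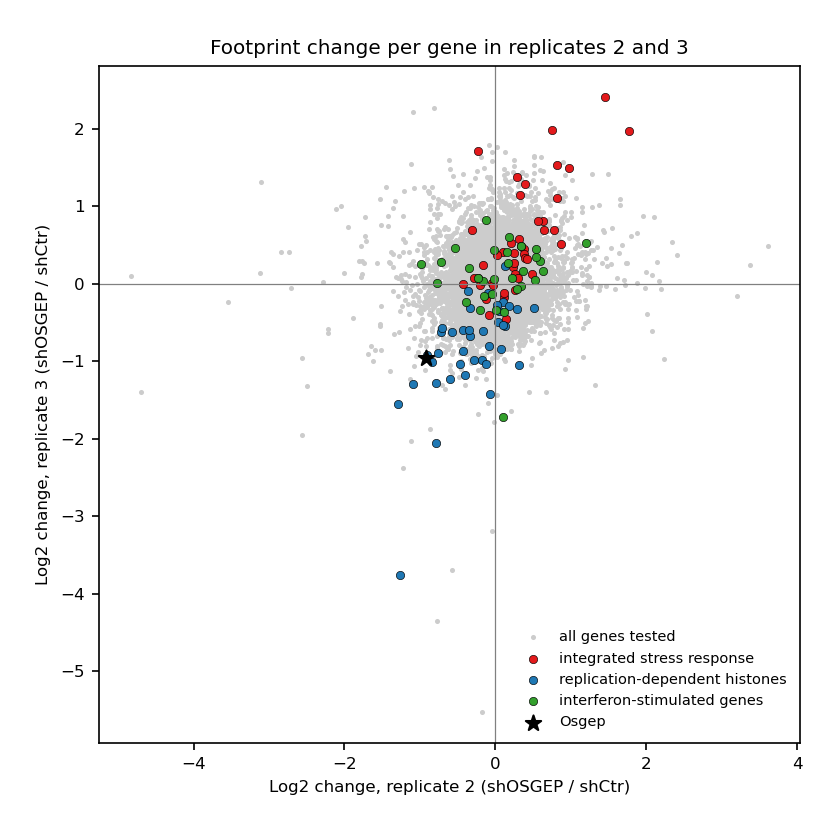
Log2 change of each gene in replicate 2 (horizontal) against replicate 3 (vertical), for all 10378 genes tested in grey and 3 lists in colour, with Osgep as a star. Trib3 and Nupr1 lie at the upper right, Osgep lies at -0.91 and -0.96, and interferon-stimulated genes lie around the centre.

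Mitochondrially encoded proteins, core subunits of the respiratory chain made on mitochondrial ribosomes, were lower, and most so in pair 1. They took 0.656%, 1.03% and 0.837% of protein-coding counts in shCtr replicates 1, 2 and 3 and 0.0767%, 0.865% and 0.748% in shOSGEP. Of 11 tested genes (of 13), 9 were lower in all pairs and none higher, and the medians were -3.45, -0.71 and -0.29. Without replicate 1 the fitted median was -0.58.
mt-Co3, a subunit of cytochrome c oxidase, measured 215, 323 and 172 CPM in shCtr and 18.2, 153 and 105 CPM in shOSGEP without overlap. mt-Nd4l (-2.31, -0.75, -0.57) and mt-Nd4 (-3.28, -0.85, -0.48) of complex I and mt-Co2 (-3.17, -0.92, -0.25) were lower in each pair. mt-Cytb of complex III (-4.14, -0.997, -0.29), mt-Atp6 of the ATP synthase (-4.31, -0.71, -0.47) and mt-Nd2 (-3.81, -0.57, -0.01) were the 3 lowest genes of pair 1 among those with at least 100 counts in both libraries of the pair. mt-Nd6, encoded on the other strand, was the exception among those named (-1.85, 0.41, -0.06). How reads that also match nuclear copies of mitochondrial genes were counted is not stated.
Nuclear genes of the same chain had other signs. Complex I subunits had medians of 0.67, -0.20 and -0.24 over 36 genes, and complexes II to V of 0.38, -0.21 and -0.33 over 36. In both, the sign in pair 1 was opposite to that in the other pairs.

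Pigment genes were lower in pairs 1 and 2 and near 0 in pair 3, with medians of -1.72, -0.42 and -0.01. Of 19 tested melanocyte genes, 9 were lower in all pairs and none higher, and 6 were lower at an unadjusted p under 0.05. Tyr, the rate-limiting enzyme of melanin synthesis, measured 43.9, 213 and 52.7 CPM in shCtr and 6.99, 74.5 and 43.3 CPM in shOSGEP. Gpr143 (-1.79, -0.80, -0.26), a melanosomal receptor, Slc24a5 (-1.74, -0.87, -0.08), a melanosomal exchanger, and Rab38 (-1.03, -0.42, -0.39), which carries melanosome cargo, were lower in each pair. The lineage factor Mitf had changes of -1.54, -0.06 and -0.11, and Sox10 of -0.63, -0.07 and 0.05. Matrix and dedifferentiation genes pointed the other way in pair 1 (medians 1.10, 0.12, 0.15), with 7 of 13 higher in all pairs and 1 lower. The 3 tested fibroblast markers had medians of 1.04, 0.12 and 0.73, and in pair 1 they were 2 higher and 1 lower. The untested marker Col1a1 had 10, 6 and 14 counts in shCtr and 71, 21 and 49 in shOSGEP. The remaining untested markers Dcn, Lum and Col3a1 had at most 7 counts in any library. The marker list shares 3 collagen genes with the matrix list, and the part of such cells in the matrix values was not tested. Fn1, fibronectin, measured 222, 178 and 109.6 CPM in shCtr and 849 (848.5), 251 and 146 CPM in shOSGEP. Col4a1 (1.62, 0.80, 0.07) of basement membrane, Thbs1 (4.39, 0.25, 0.44), a matrix glycoprotein, and the receptor kinase Axl (2.59, 0.02, 0.15) were higher in each pair.
Cholesterol synthesis genes were lower mainly in pairs 1 and 3, with medians of -0.46, -0.06 and -0.47. Of 22 tested, 9 were lower in all pairs and none higher. Idi1 (-1.32, -0.22, -0.93), Cyp51 (-0.83, -0.25, -0.50) and Fdps (-0.53, -0.30, -0.61) were lower in each pair.
Sialyltransferases, which cap glycans with sialic acid, included a gene that was lower in each pair by more than most. St6gal1 measured 78.1, 86.3 and 44.7 CPM in shCtr and 23.5, 18.5 and 29.7 CPM in shOSGEP without overlap, and DESeq2 called it lower. St3gal4 (-1.36, -0.59, -0.47) and St3gal1 (-3.19, -0.53, -0.38) did not overlap between groups either. They made 3 of 10 tested members lower in all pairs, and none was higher.
Endoplasmic reticulum stress genes were mostly lower in pairs 1 and 2, with medians of -0.35, -0.33 and 0.04. Of 23 tested, 8 were lower and 3 higher in all pairs. The chaperone cofactor Sdf2l1 (-0.71, -0.71, -0.32) was lower, while Herpud1 (1.51, 0.50, 0.53), a degradation factor of the endoplasmic reticulum, and the sensor Ern1 (0.53, 0.19, 0.72) were higher.

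In the machinery of protein synthesis and decay the sign of the median often differed between pairs. The 80 cytosolic ribosomal protein genes had medians of 0.21, -0.13 and -0.19, with 7 higher and 8 lower in all pairs and none at an unadjusted p under 0.05. The 76 mitochondrial ribosomal protein genes had medians of 0.24, -0.11 and -0.07. In all pairs 12 of these were lower (15.8%) and 9 higher (11.8%), where 15.3% and 16.4% of all genes were. Mrpl24 (1.29, 0.28, 0.71) and Mrpl52 (1.14, 0.28, 0.50) were among the 9. Translation factors were lower in all pairs for 9 of 39 genes and higher for 1, with medians of 0.05, -0.07 and -0.25. Of the 31 proteasome genes 28 were higher in pair 1 and 27 lower in pair 3, with medians of 0.33, -0.07 and -0.27. Cytosolic chaperones (21 genes) had medians of 0.06, -0.09 and -0.17, and mitochondrial expression and quality control genes (26) of -0.05, -0.04 and 0.07. In the proteasome and glycolysis lists the sign of pair 1 differed from that of pairs 2 and 3, as it did for ribosomal proteins.
Single genes in the remaining lists were higher or lower in each pair. Hmox1, haem oxygenase, was higher by 3.72, 0.57 and 0.79 without overlap, in a list of 22 NRF2 and glutathione genes with medians of 0.24, 0.06 and -0.33. Eno2, a glycolytic enolase, was higher by 2.06, 0.58 and 0.81, and the lactate carrier Slc16a1 was lower (-3.48, -0.69, -0.70). Their list of 20 glycolysis genes had medians of 0.41, -0.21 and -0.35. Selenop, a selenium carrier, was lower (-0.42, -0.70, -0.68) among 18 selenoproteins, of which 6 were lower in all pairs and 1 higher. The 10 polyamine synthesis genes had medians of -0.70, -0.06 and -0.20.

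Most genes that were alike in every pair belonged to no list. Of the 101 genes higher by at least 0.5 in each pair, 84 were in none, 10 were in the stress response and 3 were p53 targets. The stress response and p53 lists hold 44 and 16 of the 10378 genes tested. Map1a, a microtubule protein, measured 37.1, 11.1 and 67.7 CPM in shCtr and 157, 32.4 and 111 CPM in shOSGEP. Cabp1, a calcium-binding protein, was higher by 0.81, 1.28 and 1.42, and Vegfa, the angiogenic growth factor, by 1.71, 0.52 and 1.65. In 16 of the 101 genes the groups did not overlap, where 2.54% of all genes were higher in that way. Both counts use the same 6 libraries, so a share above that of all genes follows from how the 101 were chosen.
Of the 32 lower genes, 19 were in no list and 8 were histones, a list that holds 39 of the 10378 genes tested. Raver1, an RNA-binding protein, measured 47.02, 77.4 and 50.6 CPM in shCtr and 13.8, 38.9 and 29.2 CPM in shOSGEP. Enpp2, which encodes autotaxin (-1.29, -0.69, -0.79), and the glycerol kinase-like gene Gykl1 (-1.30, -1.60, -0.85) were also among the 8 lower genes with the smallest p. In 10 of the 32 the groups did not overlap, where 2.5% of all genes were lower in that way. Here too a larger share follows from how the 32 were chosen.
The 3 highest and 3 lowest genes of each pair were listed among genes with at least 100 counts in both libraries of that pair. Of these 18 genes, 7 had the same direction in all pairs and 11 did not, and of the 6 of pair 1 the direction was shared by 5. In pair 1 the highest of them were Rtkn2 (3.96), Adra2c (3.95) and Prss23 (3.85). Prss23 was higher in each pair (0.56 and 0.72 in pairs 2 and 3), and Adra2c was not (-1.19 and -0.21). With the same count limit, Osbpl7 (3.38), Tmem184c (1.37) and Bmpr1b (1.32) were highest in pair 2 and Foxe1 (-4.83), Mtm1 (-4.69) and Rnf149 (-3.54) lowest. In pair 3, again with that limit, Ell2 (2.26) joined Trib3 and Aldh1l2 at the top, and Eci1 (-5.53), Anks1 (-3.20) and Grk1 (-2.37) were lowest. Eci1 and Anks1 had changes of 3.09 and 3.70 in pair 1 and of -0.17 and -0.05 in pair 2. Lars2, a mitochondrial synthetase gene, held 8138 to 24980 CPM per library, and its changes of -0.84, -1.25 and 0.11 are given with that level.

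The codon content of the coding sequence was examined because t6A serves ANN codons. ANN codons made 27.0% to 27.6% of codons in the 6 libraries when each coding sequence was weighted by its counts. Spearman's rho between the ANN share of a gene and its change was 0.01, -0.08 and -0.06 in pairs 1, 2 and 3, across 10337 genes with a coding sequence, which share libraries and are not independent. Genes were divided into 10 groups of equal size by ANN share. In the group with the most ANN codons (32.1% to 52.5%) the median changes were 0.09, -0.07 and -0.03. In the group with the fewest (6% to 20.3%) they were 0.03, 0.03 and 0.06. The difference between these groups had opposite signs in pairs 1 and 2. The 101 genes higher by at least 0.5 in each pair had a median ANN share of 24.8%, the 32 lower genes of 26.9%, and all genes of 26.9%. The 101 genes also had a lower footprint level, with a median of 16.2 CPM against 43.2 CPM for all genes and 42.2 CPM for the 32.
Coding length followed the change more closely than the ANN share did, with a sign that differed between pairs. The rank correlation was -0.15 in pair 1, 0.11 in pair 2 and 0.16 in pair 3. Other sequence measures were of similar size in some pairs, such as GC content (-0.05, 0.14, 0.02) and the share of CNN codons (-0.07, 0.13, 0.10). Among single codons, the ANN codon ATC reached -0.20 in pair 3 (0.02 and -0.07 in pairs 1 and 2) and GAG 0.16 in pair 2 (-0.01 and 0.09 in pairs 1 and 3), both chosen after their values were seen. The mean footprint level had correlations of -0.23, -0.01 and -0.25, so that weakly covered genes had the higher changes in pairs 1 and 3. Of 10 equal groups by length, genes in the shortest (up to 180 codons) had medians of 0.30, -0.09 and -0.15, and those in the longest (1208 codons or more) of -0.13, 0.06 and 0.10. Many ribosomal protein, proteasome and respiratory chain subunits are short, and the signs of their medians by pair were those of the shortest group. The part of length in those medians was not tested. Counts per gene do not show where on an mRNA a footprint lay, so occupancy at single codons was not examined.

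**Figure D5:**
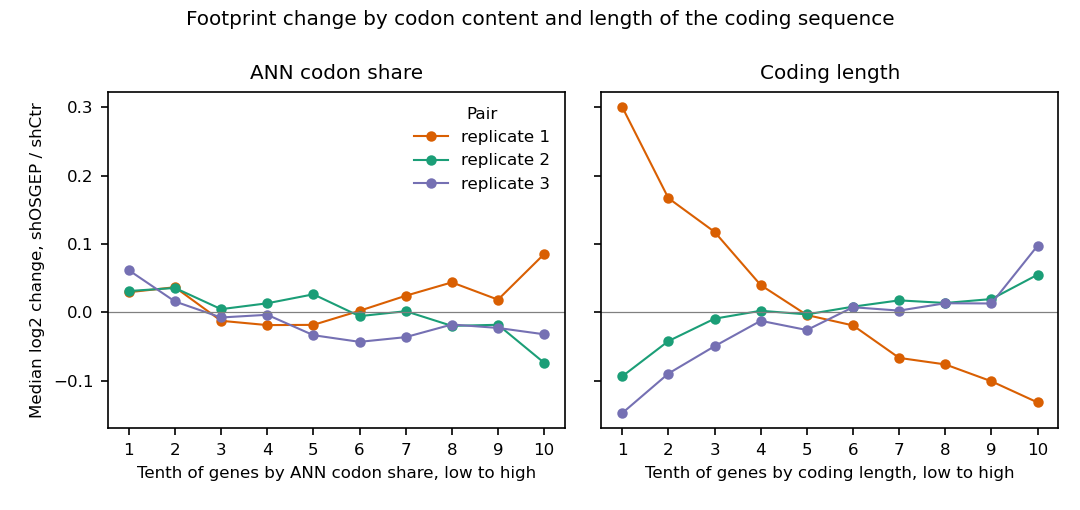
Median log2 change (vertical) of genes in 10 equal groups ordered by ANN codon share (left) or by coding length (right), one line per replicate pair. The medians by ANN share stay between -0.07 and 0.09, and those by length run from 0.30 to -0.13 in pair 1 and from below 0 to above 0 in pairs 2 and 3.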

How the data were processed

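Footprint counts per gene were deposited by the authors as whole, unnormalised counts in a table of 6 RPF libraries. The submitters' processing notes name FastQC 0.11.9, Trim Galore 0.6.6, cutadapt, STAR 3.0 and the builds GRCm38 and GRCm39, without saying which served which table. The counting program, its annotation, strand setting and treatment of reads with several matches are not given in the sources used here, and such reads affect paralogues most.
Genes were matched to GENCODE M21 by identifier (55227 of 55487). Protein-coding genes with at least 10 counts in all 6 libraries were kept. CPM were counts over protein-coding totals times TMM factors (0.956 to 1.07), and pair changes were log2 CPM ratios without a pseudocount. The test was edgeR 4.0.16 (R 4.3.3), quasi-likelihood, with replicate and hairpin as terms, two-sided, with Benjamini-Hochberg adjustment. Same-numbered libraries deviated from their group means together (r = 0.65, 0.55 and 0.74), so the numbers, which come from the labels, were taken as pairs. Other combinations gave -0.52 to -0.11, but centring on the group means itself favours negative values there. The labels do not say what the replicates are, while the study states that its experiments used independent transductions. Whether each pair is one transduction is not said. The p-values measure how the change varies between these pairs, with a spread partly shared across genes, and that variation may be technical.
Alternatives were a fit without the block, RLE size factors, protein-coding totals, other filters, DESeq2 1.42.0, limma 3.58.1 voom, and leaving out each replicate. Genes named were Osgep, the 8 with the smallest p in each direction among those alike in all pairs, up to 4 members a list by p, and 3 extremes per pair and direction with at least 100 counts. Further members were named after their values were seen, among them Ddx58, B2m, Vegfa and Atf4. The members and gene lists were chosen with earlier results of these data known. Total RNA libraries were not used here, and some items are not reported here.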

Additional observations from a re-analysis of the deposited data

How the results depend on the processing

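Most results rest on 3 pairs of which the first is far more dispersed, and its shOSGEP library has the fewest protein-coding counts, so that genes of low count are least precise there. At an adjusted p under 0.05 (edgeR, 0 genes), no count filter gave 46 of 18338 genes, DESeq2 18 and limma voom 2. Leaving out each replicate gave 0 to 186. With 1 replicate left out, 1 residual degree of freedom remains, and without replicate 1 the fit gave all genes a common spread, so its 186 calls are less certain than their number implies. At an unadjusted p under 0.05 (583 genes, 5.62%), the fit with no replicate block gave 122, so the pairing carries many of these genes. No filter gave 1243 of 18338 genes (6.78%) and voom 1019. The thresholds that the study set for its RNA sequencing, which add a log2 change beyond 0.5, gave 553. Leaving out each replicate gave 634 to 1078. Genes alike in all pairs by at least 0.5 numbered 101 higher and 32 lower, against 324 and 160 at 0.3 and 4 and 1 at 1, and 177 to 465 higher and 106 to 259 lower with each pair left out. The change of Osgep ran from -0.93 to -0.79 and the median of the integrated stress response from 0.34 to 0.65 when each replicate was left out. Of 128 single genes, 111 kept their sign when each replicate was left out. Many of the 128 were chosen for a small p or for one direction in all pairs, which makes a reversal unlikely. Their count therefore says little of other genes. The 17 that reversed, with their lowest and highest values, were Adra2c (-0.87 to 2.32), Anks1 (-1.71 to 1.83), B2m (-0.89 to 0.62), Bmpr1b (-0.56 to 1.16), Ddx58 (-0.29 to 2.07), Eci1 (-2.77 to 1.43), Eif2ak2 (-0.071 to 0.69), Ell2 (-0.61 to 1.02), Gon7 (-0.42 to 0.29), Grk1 (-1.78 to 0.86), H2-K1 (-0.083 to 2.01), Lage3 (-0.20 to 0.16), Mki67 (-1.51 to 0.11), Osgepl1 (-0.21 to 0.29), Rnf149 (-1.89 to 0.21), Tprkb (-0.12 to 0.16) and mt-Nd6 (-0.95 to 0.18). Grk1 also reversed with no replicate block (2.40). Causes were not tested.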
